A study of Mus musculus with 12 samples.

Results

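The transcripts described here are those of the 4 adult globin genes of the mouse, the alpha genes Hba-a1 and Hba-a2 and the beta genes Hbb-bs and Hbb-bt, and of Alas2. They are 5 of the 19775 genes in the deposited table. They were listed by symbol, but the list was chosen by measured values of these same mice. Alas2 was taken because it was lower in heterozygous than in wild-type brains, and the globins because they followed Alas2 across the mice and differed between the mutant genotypes once 1 mouse was left out. The levels and genotype differences of these 5 transcripts are therefore given as a description. Where intervals and counts past a p threshold are printed for them, nothing is read from those as a test.

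Adult hemoglobin is a tetramer of alpha and beta chains, each of which holds a heme group that binds oxygen. The alpha chains are made from Hba-a1 and Hba-a2 and the beta chains from Hbb-bs and Hbb-bt. Alas2 is the erythroid form of 5-aminolevulinate synthase, the enzyme that starts heme synthesis in red cell precursors, while other cells use Alas1. Mature red cells have no nucleus, and young ones, the reticulocytes, still carry globin mRNA, so that RNA from a tissue with blood in its vessels commonly holds globin reads.

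RNA came from the whole brains of 12 male C57BL/6N mice at about postnatal day 120. Of these, 4 were wild type (WT), 4 heterozygous (HT, Slc6a20a+/-) and 4 homozygous mutant (HM, Slc6a20a-/-), all offspring of heterozygous parents, and the mutant allele lacks exon 3 of Slc6a20a, a transporter of glycine and proline, in every cell. Brains were kept in RNAlater, poly-A RNA was sequenced, and whether blood was flushed out by perfusion is not given in the sources used here. Values are normalized counts, which the authors scaled to make the libraries comparable. Their sums lay between 33284951 and 33748623 per mouse, and the spacing of the lowest values put 1 read at 0.93 to 1.13 normalized counts. Slc6a20a itself lay at 584 to 750 normalized counts in the WT, 310 to 372 in the HT and 55.6 to 76.5 in the HM mice, so each library matched its label. Brain genes were abundant in every mouse, with 79400 to 87800 normalized counts for Snap25, a synaptic vesicle fusion protein, and 78000 to 98400 for Mbp, a myelin protein. In such bulk tissue, fewer cells of a type and less RNA per cell cannot be told apart.

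On GRCm38 with the GENCODE M21 annotation, Hba-a1 (ENSMUSG00000069919) lies at chr11:32283511-32284465 and Hba-a2 (ENSMUSG00000069917) at chr11:32296489-32297298, both on the plus strand. Hbb-bs (ENSMUSG00000052305) lies at chr7:103826534-103828096 and Hbb-bt (ENSMUSG00000073940) at chr7:103812524-103813996, both on the minus strand. Each globin gene has 3 exons, with 426 coding bases in the alpha genes and 441 in the beta genes. Alas2 (ENSMUSG00000025270) lies at chrX:150547375-150570638 on the plus strand, and its transcript used here has 11 exons and 2037 bases.

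Within each globin pair the coding sequences are almost the same, which bears on every value below that separates one copy from the other. In Hba-a1 and Hba-a2, 425 of 426 coding bases are identical and the substitution is C381T, counted from the first base of the start codon. In Hbb-bs and Hbb-bt, 440 of 441 are identical and the substitution is C417T. Both changes fall on the third base of a codon, codon 127 in the alpha and codon 139 in the beta genes, and in the standard code a change between C and T at that place leaves the amino acid as it is. The stretches that hold the difference, coding bases 351 to 410 of the alpha and 382 to 441 of the beta genes in the GENCODE transcripts, are shown with the differing base in capitals.
Hba-a1: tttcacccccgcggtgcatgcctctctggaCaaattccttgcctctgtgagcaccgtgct
Hba-a2: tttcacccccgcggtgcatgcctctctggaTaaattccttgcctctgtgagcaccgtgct
Hbb-bs: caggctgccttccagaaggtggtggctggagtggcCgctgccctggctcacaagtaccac
Hbb-bt: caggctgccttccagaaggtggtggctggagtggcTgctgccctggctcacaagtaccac

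The alpha and beta coding sequences shared 60.8% to 61.0% of their aligned positions. Of all windows of 100 bases in its transcript, the length of 1 read, 43.5% were found only in Hba-a1, 25.5% only in Hba-a2, 37.4% only in Hbb-bs and 45.2% only in Hbb-bt. The remaining windows occurred in the partner copy as well. These shares also depend on the annotated transcript lengths. The lengths are 699 bases for Hba-a1, 554 for Hba-a2, 628 for Hbb-bs and 703 for Hbb-bt. Salmon divides reads that match several transcripts by an estimate, so the split between Hba-a1 and Hba-a2 and between Hbb-bs and Hbb-bt is uncertain, while the sum over a pair is not affected by it. For Alas2, 89.0% of windows were its own, and the rest occurred in transcripts of Apex2, a DNA repair nuclease whose gene overlaps Alas2 on the opposite strand.

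The promoters were examined because the 5 transcripts moved together from mouse to mouse. In the RefSeq promoters of GRCm38.p6, the 250 bases before each start were searched on both strands for letters of the TATA box (ATATAA) and the CCAAT box (CCAAT), and of sites bound by the KLF (CACCC) and GATA (GATAA) families of factors. ATATAA stood 28 to 31 bases before the RefSeq start of each of the 4 globin genes and was not found in the window of Alas2. Of 32851 promoters searched in the same way, 9.1% held it. CCAAT was found in the 4 globin windows and not in that of Alas2, and in 33.8% of all promoters. CACCC and GATAA were found in all 5 windows, in Alas2 on the opposite strand, and in 52.0% and 22.6% of all promoters. None of these matches shows that a factor was bound. For Hba-a1, Hbb-bs and Hbb-bt the RefSeq starts, at 32283672, 103827928 and 103813923, lie inside the GENCODE spans given above. The stretches shown for these genes therefore lie inside those spans as well, and which start was used in these brains was not tested. The windows around ATATAA, and that around the reverse complement of GATAA in Alas2, are shown with the searched letters in capitals, and the capitals ATTGG in Hbb-bt are CCAAT read from the other strand.
Hba-a1, chr11:32283632-32283661, plus strand: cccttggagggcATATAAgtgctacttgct
Hba-a2, chr11:32296449-32296478, plus strand: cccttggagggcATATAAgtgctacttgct
Hbb-bs, chr7:103827941-103827970, minus strand: ccagggcagagcATATAAggtgaggtagga
Hbb-bt, chr7:103813935-103813964, minus strand: ccagcATTGGgtATATAAagctgagcaggg
Alas2, chrX:150547319-150547348, plus strand: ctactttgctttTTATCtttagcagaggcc

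Over their full 250 upstream bases the alpha promoters were identical at 97.6% of aligned columns, with 0 mismatches and 6 gap columns. The beta promoters were identical at 70.9%, with 54 mismatches and 22 gap columns. The alpha pair was thus nearly as alike upstream as in its coding sequence, and the beta pair was not.

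The alpha genes are described first. Hba-a1 had 4484.2, 1677.9, 2733.8 and 2545.5 normalized counts in WT replicates 1 to 4. It had 1495.0, 1389.7, 1808.2 and 1996.7 in the HT mice and 6440.2, 4465.6, 1462.3 and 3135.7 in the HM mice. The HT values lay close together, whereas the WT and HM values spread over several-fold and the lowest HM mouse, replicate 3, lay among the HT mice. Hba-a2 had 5791.5, 2151.5, 3810.6 and 3344.6 in the WT mice, 1834.6, 2072.1, 2244.5 and 2501.4 in the HT mice and 8185.0, 5787.4, 1725.1 and 3849.1 in the HM mice. Its lowest value of all 12 was that of HM replicate 3 and its highest that of HM replicate 1, and for Hba-a1 and Hba-a2 alike WT replicate 2 lay within the range of the HT mice.

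Hbb-bs was the most abundant of the 5. It had 10077, 3297.4, 5676.1 and 5368.8 normalized counts in the WT mice, 2670.2, 3204.8, 2985.3 and 3621.6 in the HT mice and 11991, 8443.6, 2262.2 and 5538.5 in the HM mice. All HT mice but replicate 4 lay below all WT mice, and HM replicate 3 lay below every other mouse. Hbb-bt, the minor beta gene, had 1432.9, 526.28, 906.97 and 780.31 in the WT mice, 421.88, 459.95, 394.26 and 498.66 in the HT mice and 2112.8, 1269.9, 364.53 and 857.36 in the HM mice. Here the HT and WT values did not overlap, with the lowest WT value at 526.28 and the highest HT value at 498.66.

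Alas2 was far lower than the globins. It had 197.82, 126.71, 192.44 and 111.88 normalized counts in the WT mice, 73.276, 93.892, 78.631 and 98.461 in the HT mice and 293.06, 191.88, 44.451 and 120.20 in the HM mice. Every HT mouse lay below every WT mouse, and the HM mice ranged from below all HT mice to above all WT mice, a 6.59-fold range within 1 genotype.

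**Figure D1:**
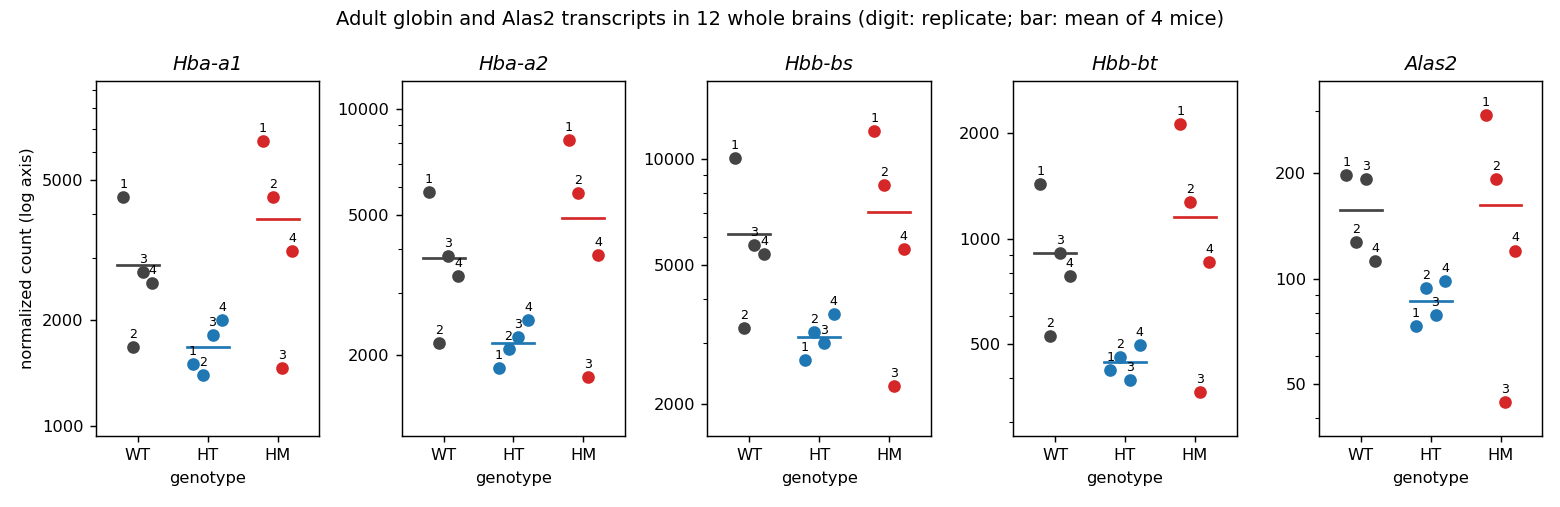
Normalized counts of each globin and of Alas2 (log axes) in the 4 WT, 4 HT and 4 HM mice, with the replicate number above each point and a bar at the genotype mean. In every panel HM replicate 1 is the highest mouse and HM replicate 3 lies with or below the HT mice.

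The same mice were high and low for all 5 transcripts. HM replicate 1 ranked highest of 12 and WT replicate 1 second highest for each, and HM replicate 3 was the lowest or second lowest for each. WT replicate 2 varied most in rank, from the fourth to the eighth lowest. The highest mouse exceeded the lowest 4.63-fold for Hba-a1, 4.74-fold for Hba-a2, 5.3-fold for Hbb-bs, 5.8-fold for Hbb-bt and 6.59-fold for Alas2. Summed, the 4 globins took 0.0173% to 0.0858% of all normalized counts in a mouse.

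Per kilobase of transcript, the mean levels over the 12 mice were 8643 normalized counts for Hbb-bs, 6513 for Hba-a2, 4010 for Hba-a1, 1188 for Hbb-bt and 66.38 for Alas2. This order held in 12 of 12 mice, although the split within each pair rests on few distinguishing bases and the levels on the annotated transcript lengths. The level of every globin per kilobase thus exceeded that of the heme enzyme in each mouse.

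Genotype means followed from these values. For Hbb-bs they were 6105 ± 2850 normalized counts for WT, 3120 ± 400 for HT and 7059 ± 4150 for HM mice (SD, n = 4). For Hba-a2 they were 3775 ± 1520, 2163 ± 281 and 4887 ± 2750, and for Hba-a1 they were 2860 ± 1180, 1672 ± 280 and 3876 ± 2110. The SD of the HM mice was as large as 54.3% to 58.7% of their mean for these genes, and that of the HT mice 12.8% to 16.7%. Hbb-bt had 911.6 ± 382, 443.7 ± 45.5 and 1151 ± 740 in the same order of genotypes, and Alas2 157.2 ± 44.3, 86.07 ± 12.0 and 162.4 ± 106. The order of the means was HT, WT and HM for all 5 transcripts, and the WT and HM ranges overlapped for all 5.

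Fold changes were estimated with limma on log2(normalized count + 1), in which the log2 fold change of all genes had a median of 0.0. In HT against WT mice, the log2 fold change was -0.70 for Hba-a1 (SE 0.22, 95% interval -1.17 to -0.24) and -0.72 for Hba-a2 (SE 0.21, -1.18 to -0.27). It was -0.86 for Hbb-bs (SE 0.23, -1.37 to -0.36), -0.95 for Hbb-bt (SE 0.21, -1.41 to -0.49) and -0.83 for Alas2 (SE 0.19, -1.23 to -0.42). For Hbb-bs the value was -0.58 without WT replicate 1 and -1.12 without WT replicate 2. The ratio of the HT to the WT mean ran from 0.487 for Hbb-bt to 0.585 for Hba-a1. With Benjamini-Hochberg (BH) adjustment over the 18004 genes tested, 0 of the 5 passed an adjusted p of 0.05 by limma, and 0.00555% of all genes did, which is Slc6a20a alone. At an unadjusted p under 0.05, 5 of 5 were lower, against 3.26% of all genes, and for 2 of 5 the groups did not overlap, against 1.91% of all genes that were lower without overlap. Nothing is read from these counts, because this comparison helped to choose the transcripts. The authors, with the count model of DESeq2 on the same mice, listed Alas2 among the genes significantly lower in HT than in WT mice.

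In HM against WT mice, the log2 fold changes were 0.33 for Hba-a1 (SE 0.37), 0.25 for Hba-a2 (SE 0.39), 0.08 for Hbb-bs (SE 0.42), 0.16 for Hbb-bt (SE 0.42) and -0.21 for Alas2 (SE 0.43). All 5 intervals took in 0, the widest from -1.14 to 0.73 for Alas2. Single mice turned the sign for Hbb-bs, which was -0.25 without HM replicate 1, -0.09 without HM replicate 2 and -0.18 without WT replicate 2. Alas2 turned to 0.31 without HM replicate 3. By limma, 0 of 5 passed the adjusted threshold, which 0.0111% of all genes did, and 0 of 5 had an unadjusted p under 0.05, against 6.99% of all genes. The groups overlapped for all 5, while 4.22% of all genes did not overlap. These counts too are a description, from which nothing is read. These 8 mice include the same WT mice as the comparison with HT.

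In HM against HT mice, the log2 fold changes were 1.03 for Hba-a1 (SE 0.33, 95% interval 0.32 to 1.75), 0.97 for Hba-a2 (SE 0.34, 0.23 to 1.71) and 0.94 for Hbb-bs (SE 0.37, 0.15 to 1.74). They were 1.11 for Hbb-bt (SE 0.38, 0.30 to 1.93) and 0.62 for Alas2 (SE 0.42, -0.29 to 1.53). In each case 3 of 4 HM mice lay above all HT mice, and the fourth, replicate 3, lay among or below them. By limma, 0 of 5 passed the adjusted threshold, against 0.00556% of all genes, and 4 of 5 were higher at an unadjusted p under 0.05, against 2.11% of all genes. For 0 of 5 did all HM mice lie above all HT mice, as they did for 1.24% of all genes. Nothing is read from these counts either. Without HM replicate 3 the log2 fold changes were 1.44 for Hba-a1, 1.4 for Hba-a2, 1.41 for Hbb-bs, 1.58 for Hbb-bt and 1.14 for Alas2. Without HM replicate 1 they were 0.72 for Hba-a1, 0.65 for Hba-a2, 0.61 for Hbb-bs, 0.73 for Hbb-bt and 0.24 for Alas2. The interval of Hbb-bs then ran from -0.08 to 1.3. Leaving out HM replicate 3 moved the HM against WT value of Hbb-bs from 0.08 to 0.55. The 3 comparisons share mice in pairs, so their values are not independent.

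The column headers carry an animal number for each mouse. Its first digits were shared by HM replicates 1 and 2 (271), by WT replicate 1 and HM replicate 3 (274), by WT replicate 2, HT replicates 1 and 2 and HM replicate 4 (276), and by WT replicates 3 and 4 and HT replicates 3 and 4 (278). What the digits stand for is not given in the sources used here. Within 276 the HT mice were lower than the WT mouse by a log2 difference of -0.17 for Hbb-bs and -0.61 for Alas2, and within 278 by -0.75 and -0.73. For all 5 transcripts both HT mice lay below the WT mice of their number start. The HM mouse of 274 was lower than the WT mouse by -2.15 for Hbb-bs, and the HM mouse of 276 was higher than the WT mouse by 0.75. For the 4 globins the difference between HM and WT mice thus had opposite signs within the number starts that held both, with 1 mouse a genotype in each, while for Alas2 it was -2.13 and -0.08. HM replicate 1, the highest mouse for all 5, and HM replicate 2 were of 271, a start with no other genotype, so its part in their values cannot be told apart from genotype. With the number start as a block in the fit, the log2 fold changes in HM against WT mice turned to -0.36 for Hba-a1, -0.45 for Hba-a2, -0.70 for Hbb-bs and -0.63 for Hbb-bt, and that of Alas2 was -1.1.

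Ratios among the transcripts varied far less than their levels. Hba-a1 over Hba-a2 lay between 0.671 and 0.848 in the 12 mice, with a coefficient of variation (CV) of 6.04%. Hbb-bt over Hbb-bs lay between 0.132 and 0.176, with a CV of 8.07%. The globin levels themselves had CVs of 56.0% to 63.8%, so the copies of a pair kept a nearly fixed proportion while their sum changed several-fold, although the division of shared reads also ties the copies of a pair together. The sum of the alpha over the sum of the beta counts, which no read sharing joins, lay between 0.893 and 1.21, with a CV of 9.25%. It was 0.962 ± 0.0497 for WT, 1.08 ± 0.104 for HT and 1.1 ± 0.0794 for HM mice (SD, n = 4), and the HM mice, from 1.04, all lay above the WT mice, up to 1.0.

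Alas2 followed the globins less tightly. It had 9.08, 16.6, 14.7 and 9.29 counts per 1000 globin counts in the WT mice, 11.4, 13.2, 10.6 and 11.4 in the HT mice and 10.2, 9.61, 7.65 and 8.98 in the HM mice. WT replicates 2 and 3 stood highest and HM replicate 3 lowest, and the CV over the 12 mice was 23.5%. Compared at equal levels of Hbb-bs, the log2 difference of Alas2 was -0.42 in HT against WT mice (SE 0.23, 95% interval -0.92 to 0.07), where it had been -0.83. In HM against HT mice it was -0.43 (SE 0.13, -0.72 to -0.14), where it had been 0.62, so its sign turned once the globin level was held equal. With the 2 libraries of lowest and highest Hbb-bs both in the HM group, this adjustment rests on few mice.

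**Figure D2:**
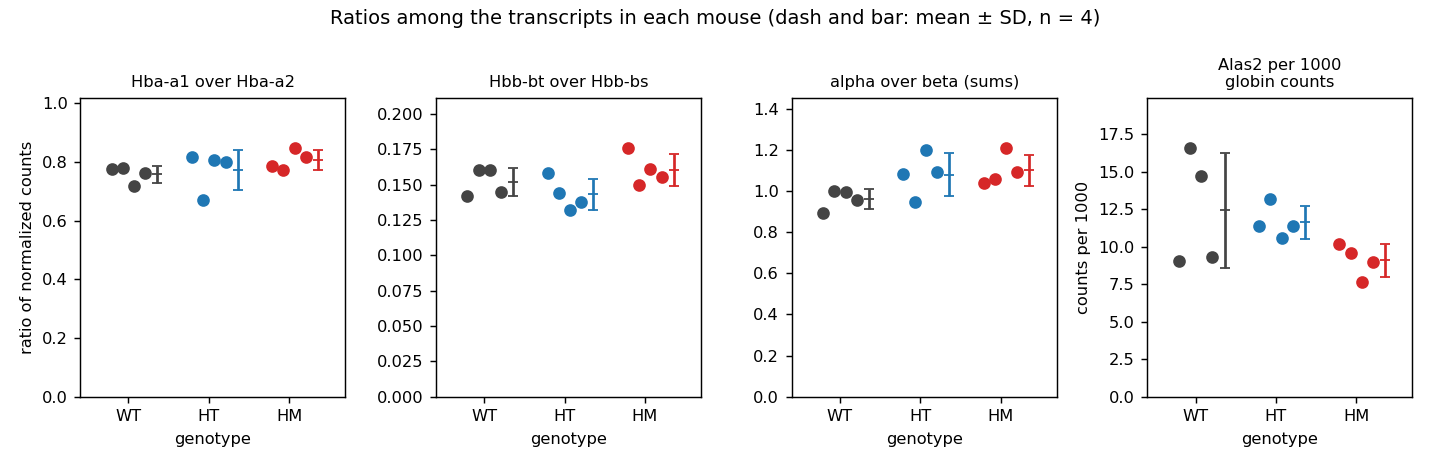
Ratios of normalized counts in each mouse by genotype, with the mean ± SD (n = 4) beside the points and axes from 0. The 3 globin ratios stay within 1.26-fold to 1.36-fold over the 12 mice, and Alas2 per 1000 globin counts varies 2.17-fold.

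A slope of each gene on Hbb-bs over all 12 mice, with genotype as a covariate, expresses the shared movement. On the log2 scale, Hba-a2 changed by 0.92 per unit of Hbb-bs (SE 0.03), Hba-a1 by 0.88 (SE 0.05), Hbb-bt by 0.98 (SE 0.05) and Alas2 by 0.92 (SE 0.12). A doubling of Hbb-bs thus went with 1.89 times Hba-a2, 1.83 times Hba-a1, 1.97 times Hbb-bt and 1.89 times Alas2. The intervals were 0.85 to 0.98 for Hba-a2 and 0.77 to 0.98 for Hba-a1, both below 1, and 0.66 to 1.17 for Alas2. Pearson correlations with Hbb-bs over the 12 mice were 0.992 for Hba-a2, 0.991 for Hbb-bt, 0.977 for Hba-a1 and 0.922 for Alas2. After genotype means were removed they were 0.995, 0.990, 0.982 and 0.917. These points share their library and its normalization, and the transcripts were chosen for moving together.

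**Figure D3:**
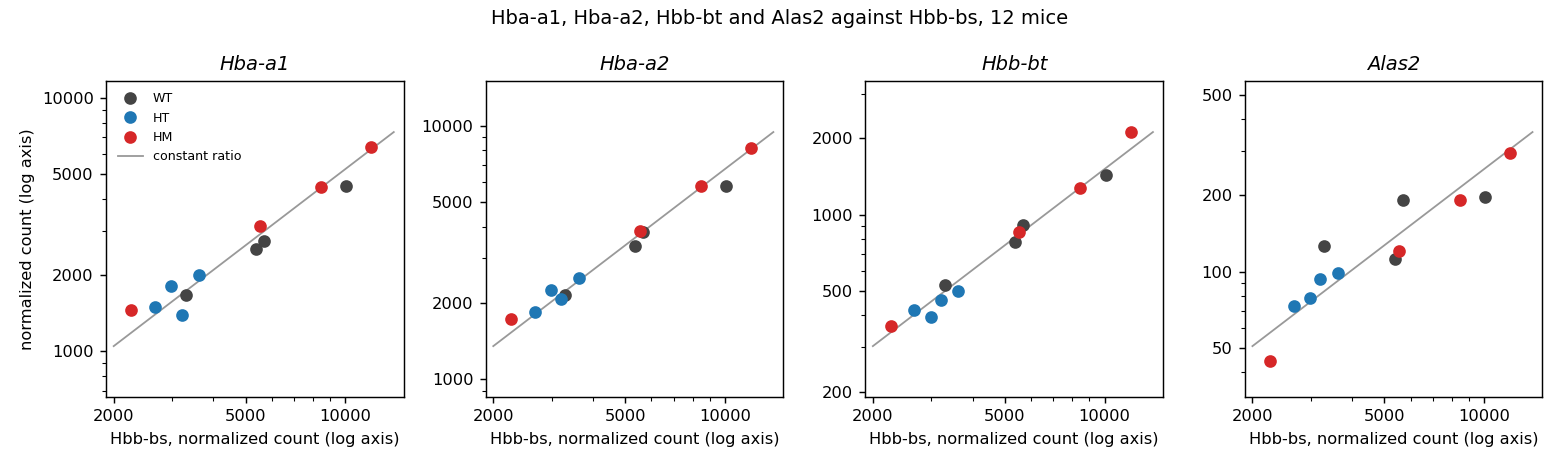
Normalized counts of the alpha genes, the minor beta gene and Alas2 against Hbb-bs in 12 mice (both axes log), coloured by genotype, with a grey line of constant ratio. The globin points follow the line over the 5.3-fold range of Hbb-bs, and those of Alas2 scatter more, with HM replicate 3 below it and WT replicates 2 and 3 above it.

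The spread of these transcripts between mice of one genotype was wide for genes of their level. The SD of the log2 values within genotypes was 0.64 for Hba-a1, 0.66 for Hba-a2, 0.72 for Hbb-bs, 0.71 for Hbb-bt and 0.72 for Alas2. Among 2497 genes whose mean lay within 2-fold of that of Hbb-bs, 0 had a larger SD, and their median was 0.06. The same counts were 3 of 4116 genes for Hba-a1, 1 of 3543 for Hba-a2, 2 of 5080 for Hbb-bt and 23 of 2914 for Alas2. The median SD of these genes of like abundance was 0.07 for both alpha genes, 0.09 for Hbb-bt and 0.19 for Alas2.

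Whether other genes moved with the globins was tested in the same slope fit. Of 18001 genes other than the 5, 0 passed a BH-adjusted p of 0.05 by limma, and 1356 (7.53%) had an unadjusted p under 0.05, 634 of them higher and 722 lower with Hbb-bs. Among the 9163 of these genes whose mean reached 500, the slopes ran from -0.60 for mt-Co3, a mitochondrial subunit of cytochrome oxidase, to 0.32 for Aldh1a1, a retinaldehyde dehydrogenase. As steep as the least steep of Hba-a1, Hba-a2, the minor beta gene and Alas2 were 23 other genes, none with a mean above 210 normalized counts.

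**Figure D4:**
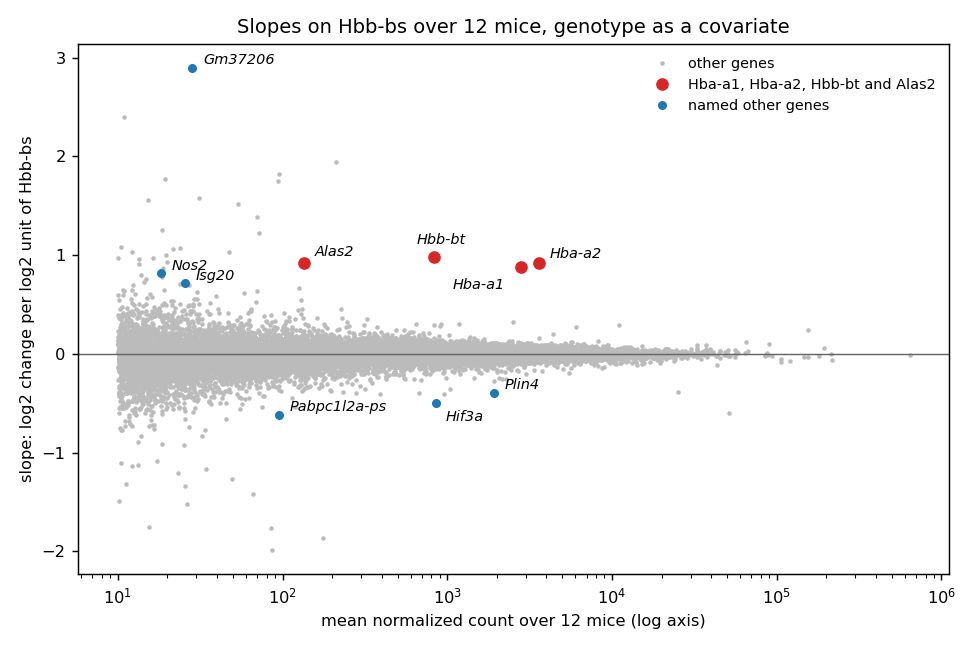
Slope of each gene on Hbb-bs (log2 change per log2 unit, genotype as a covariate, 12 mice) against its mean normalized count (log axis). The other 3 globins and Alas2 lie between 0.88 and 0.98, and Gm37206 is drawn at 2.89.

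The 10 genes with the smallest p in each direction all missed the adjusted threshold. Those higher with Hbb-bs were Gm37206, Tdrp, Nos2, Alg13, Isg20, Guk1, Top2b, Gbp3, Cd320 and Amd1, with adjusted p from 0.0646 for Gm37206 to 0.508 (limma, BH). Nos2, the inducible nitric oxide synthase, had a slope of 0.82 (SE 0.16) at a mean of only 18.2 normalized counts. Isg20, an interferon-induced exonuclease that red cell precursors also express, had a slope of 0.72 (SE 0.17), and Cd320, the receptor for transcobalamin-bound vitamin B12, one of 0.20 (SE 0.05). Those lower with Hbb-bs were Pabpc1l2a-ps, Hif3a, Abca1, Mthfd2, Mboat2, Fam214a, Plin4, Grin1os, Galnt15 and Lifr, with adjusted p from 0.255 to 0.365. Hif3a, a member of the hypoxia-inducible factor family, had a slope of -0.50 (SE 0.10), and Abca1, a cholesterol exporter, one of -0.25 (SE 0.05). Hif3a had 594 and 603 normalized counts in WT and HM replicate 1, the mice richest in globin, and 1330 in HM replicate 3, the mouse poorest in it.

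Gm37206, an annotated locus of unknown coding status at chr19:4762103-4765171 on the minus strand, was listed at 0 in 6 mice, namely WT replicate 2, HM replicate 3 and all HT mice. It had 41.2 to 98.0 normalized counts in the other 6. Hbb-bs was at most 3621.6 in the former and at least 5368.8 in the latter, and 1 of the 19775 genes showed this split. Its slope was 2.89 (SE 0.47), with an adjusted p of 0.0646 that ranged from 0.000845 to 0.47 over 19 alternatives and was under 0.05 in 3 of them (limma, BH). A value of 0 from Salmon can be a failed estimate for a locus that overlaps others, and Gm37206 lies over Rbm4b on the opposite strand and Gm21992 on its own. It shared 0 windows of 21 bases with the 5 transcripts.

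By likeness of pattern, the 10 genes with the highest Pearson correlation with Hbb-bs over the 12 mice were Gm37206 (0.908), Gm4221 (0.886), Gm20498 (0.873), Rfc3 (0.871), Klhl14 (0.871), Ube2l6 (0.869), Isg20 (0.851), Trac (0.841), Il17d (0.828) and Bloc1s3 (0.819), of 18001 genes ranked. All of these were below the 0.922 of Alas2. Ube2l6, a conjugating enzyme for the ubiquitin-like protein ISG15 that is abundant in maturing red cells, ranged from 96.7 to 156 normalized counts, a far narrower range than that of any globin. Trac, the constant region of the T cell receptor alpha chain, had 6.68 to 22 normalized counts.

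Other globins were scarcely measured. Of 12 further globin genes, Hba-x, Hbq1b, Hbb-bh0, Hbb-bh1, Hbb-bh2, Hbb-bh3, Hbb-y and Cyg were not analysed here, for want of a value. These include the embryonic chains. Ngb, the globin of neurons, had 277 to 406 normalized counts and a slope on Hbb-bs of 0.06 (SE 0.06), Adgb one of -0.24 (SE 0.16) and Hbq1a, next to Hba-a2, one of -0.32 (SE 0.28) at a mean of 10.3. Mb, myoglobin, had a mean of 7.05 and was not tested. None of the 3 tested passed the adjusted threshold or had an unadjusted p under 0.05 (limma).

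Genes of the rest of the heme pathway had slopes near 0. All 14 listed genes for heme synthesis and mitochondrial supply were tested, 0 had an unadjusted p under 0.05 (limma), and their median slope was 0.015, beside 0.001 over all genes. Alas1, the form of the enzyme outside red cells, had 1580 to 1970 normalized counts and a slope of 0.02 (SE 0.04). Fech, which inserts iron into the porphyrin ring at the end of the pathway, had a slope of -0.04 (SE 0.03), and Slc25a37, the mitochondrial iron importer known as mitoferrin, one of 0.05 (SE 0.04). The remaining genes, among them Alad, Uros, Urod, Cpox, Ppox, Slc25a38, Abcb10, Tmem14c, Abcb6 and Clpx, had slopes between -0.04 and 0.07. In the genotype comparisons 0 of 14 had an unadjusted p under 0.05 in each (limma).

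Erythroid transcription factors were mostly low or also expressed by brain cells. Gata1, Nfe2 and Gfi1b, of 10 listed, were not analysed here, and Klf1, the erythroid KLF factor that drives adult beta-globin, had a mean of 6.12 normalized counts and was not tested. Of the 6 tested, 0 passed the adjusted threshold, and Tal1, which also acts in midbrain and endothelium, had a slope of 0.22 (SE 0.09, unadjusted p = 0.0238, limma). Lmo2, Ldb1, Zfpm1, Bcl11a and Zbtb7a had slopes between -0.04 and 0.08.

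Genes of the red cell membrane and its skeleton were next. Of 15, 9 had a value, and Epb42, Rhag, Rhd and Kel were among those not analysed here. Sptb, Ank1, Epb41, Add2, Dmtn and Tmod1, skeleton proteins that neurons express too, had 1490 to 12600 normalized counts and slopes between -0.05 and 0.10. Gypc and Ermap had slopes of -0.09 (SE 0.11) and 0.19 (SE 0.14). Of the 8 tested, 0 had an unadjusted p under 0.05 (limma). Slc4a1, the anion exchanger band 3 of red cells, had 0.878 to 8.41 normalized counts in 11 mice and 45.1 in HM replicate 3, the mouse with the lowest Hbb-bs, and its mean of 8.32 kept it out of the slope fit. All 4 HM mice, from 8.0, lay above every WT mouse, up to 6.1, and every HT mouse, up to 4.47. Of all genes, 4.22% did not overlap in HM against WT mice, and 1.24% were higher without overlap in HM against HT mice. With 1 read at 0.93 to 1.13 normalized counts, these levels of Slc4a1 rest on few reads, and nothing is read from the separation. Slc4a1 passed the limit on the mean in HM against WT mice only through its HM mean of 17.45, raised by replicate 3, beside 3.541 in WT mice. Its log2 fold change there, 1.75, is therefore given as a description.

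Reticulocyte genes included Isg20, the steepest slope among the listed genes, though none passed the threshold. Of 17, Ahsp, Hemgn, Car1, Trim10, Trim58 and Tspo2 were not analysed here. Of the 11 tested, 10 had a positive slope, 0 passed the adjusted threshold, and 5 had an unadjusted p under 0.05 with a higher level (limma), against 3.52% of all genes. These were Isg20 (0.72), Tent5c (0.33), Ube2l6 (0.24), Bpgm (0.11) and Prdx2 (0.08), where Bpgm makes 2,3-bisphosphoglycerate, the red cell regulator of oxygen affinity, and Prdx2 is a peroxidase abundant in red cells. Over all 11, which also included Bnip3l, Mkrn1, Ypel4, Epor and Cat, the median slope was 0.076. Bpgm and Prdx2 had means of 1700 and 5500 normalized counts, and brain cells express both.

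Few markers of other blood cells had a value. Of 13 neutrophil markers 4 had a value, and Ngp, Camp, Ltf, S100a8, Elane and Mpo were not analysed here. The 3 tested had slopes between -0.05 and 0.02, among them Csf3r with 111 to 192 normalized counts, which microglia express as well. The summed level of the neutrophil markers was 179 to 270 for WT, 183 to 207 for HT and 227 to 275 for HM mice. Of 14 platelet markers 9 were tested, and Gp1bb alone had an unadjusted p under 0.05 (slope -0.45, SE 0.18, limma), opposite to the globins. The sums were 332 to 354 for WT, 305 to 360 for HT and 323 to 367 for HM mice. Of 13 lymphocyte markers 3 were tested, with slopes of -0.11 to -0.04, and their sums were 991 to 1210 for WT, 994 to 1120 for HT and 1040 to 1170 for HM mice. The neutrophil sums are carried mostly by Csf3r. The lymphocyte sums are carried by Ighm and Cd4, of which Ighm had 634 to 900 and Cd4 260 to 390 normalized counts. In the platelet sums, Itgb3 (mean 122) and Itga2b (mean 89) were the most abundant. Scarce members varied more, with 2.42 to 46.6 for Lcn2, 0.941 to 13.8 for S100a9 and 2.16 to 29.8 for Igkc.

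Vessel cells were read from their own markers. Among 15 brain endothelial markers the median slope was 0.048, and 0 passed the adjusted threshold (limma). At an unadjusted p under 0.05 were Cldn5, a tight junction protein (0.21, SE 0.08), and Slc2a1, the glucose transporter GLUT1 (-0.16, SE 0.06), in opposite directions. Among 10 pericyte and smooth muscle markers the median was -0.054, with Myh11 at -0.12 (SE 0.06). Choroid plexus markers had a median of -0.092 and meningeal markers one of 0.013, with 0 of 12 and 0 of 11 at an unadjusted p under 0.05.

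Genes of iron and heme handling were tested in the same way, beside 3.52% of all genes higher and 4.01% lower at an unadjusted p under 0.05. Of 11 genes for iron uptake, storage and sensing, 0 passed the adjusted threshold, 3 had an unadjusted p under 0.05 with a lower level and 1 with a higher level (limma). The lower ones were Tfrc, the transferrin receptor (-0.16, SE 0.04), Aco1 (-0.10, SE 0.04) and Hfe (-0.33, SE 0.11), and the higher one was the ferritin light chain Ftl1 (0.08, SE 0.03). Of 9 genes for heme breakdown and export tested, Blvrb, a biliverdin reductase that red cells hold in quantity, had an unadjusted p under 0.05 (0.12, SE 0.05), and Hmox1, the inducible heme oxygenase, had a slope of 0.07 (SE 0.08). Hypoxia-responsive genes had a median slope of 0.005, with Egln3 (0.13) and P4ha1 (0.11) higher and Kdm3a (-0.15) lower at an unadjusted p under 0.05 and 0 of 10 past the adjusted threshold (limma). Markers of midbrain dopamine neurons had a median of 0.071, of brain cells in general 0.002 and of organs outside the brain 0.02, again with 0 past the adjusted threshold (limma) and 1 of 7, 2 of 12 and 0 of 3 at an unadjusted p under 0.05.

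Glucocorticoid-responsive genes had the lowest median of the 19 lists tested against Hbb-bs save that of the 3 other globins. All 12 had negative slopes with a median of -0.189, 0 passed the adjusted threshold, and 9 had an unadjusted p under 0.05 (limma), against 4.01% of all genes that were lower. They included Hif3a (-0.50), Cdkn1a (-0.40), Plin4 (-0.39), Fkbp5 (-0.26), Zbtb16 (-0.26) and Sgk1 (-0.19). Per1 (-0.06), Tsc22d3 (-0.07) and Mt1 (-0.07) did not reach that p. In HT against WT mice, where the globins were lower, 5 of the 12 were lower at an unadjusted p under 0.05 (limma), against 3.26% of all genes. There 0 passed the adjusted threshold, and the median log2 fold change was -0.127. This direction is opposite to the negative slopes, by which these genes were higher in mice with less Hbb-bs within genotypes. The levels of these genes were 668 to 1470 normalized counts for Cdkn1a and 1290 to 2830 for Plin4 over the 12 mice, and their part in the globin values was not tested.

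**Figure D5:**
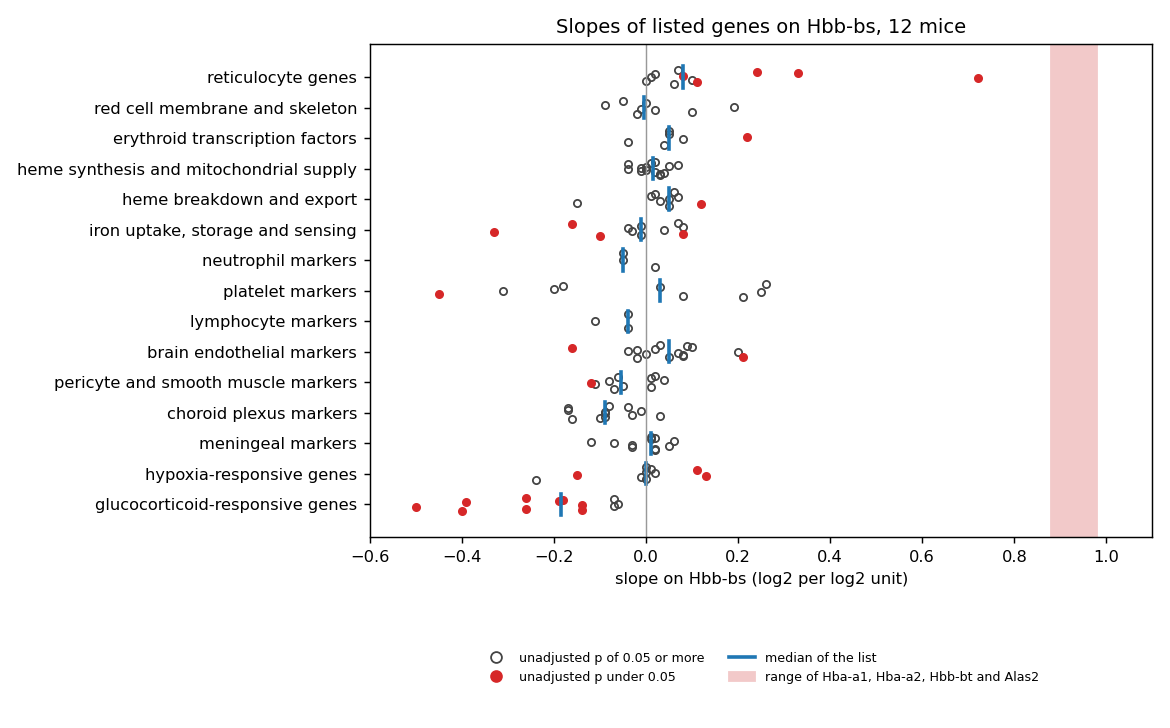
Slopes on Hbb-bs (log2 per log2 unit, 12 mice) of each tested gene in 15 of the lists, filled red at an unadjusted p under 0.05, with the median of each list as a blue line. The shaded band marks the slopes of the other 3 globins and Alas2, 0.88 to 0.98, which no listed gene reaches.

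Genes beside the loci were also measured. Within 100 kb of the alpha genes, Snrnp25, Rhbdf1, Mpg and Sh3pxd2b had slopes of -0.05 to 0.03, and Nprl3, whose introns hold the alpha-globin enhancers, had 971 to 1230 normalized counts and a slope of -0.13 (SE 0.04, adjusted p = 0.515, limma, BH). Around the beta genes, which sit among olfactory receptor genes, no further gene was analysed here. Beside Alas2, Tmem29, 3110067C02Rik, Pfkfb1 and Tro had slopes of -0.14 to 0.01. Apex2, which spans Alas2 on the opposite strand, had 165 to 250 normalized counts and a slope of 0.16 (SE 0.06, adjusted p = 0.583, limma, BH). Whether strand was used in counting is not given in the sources used here, so reads of Alas2 and Apex2 over shared bases cannot be told apart, and the range of Apex2 was far narrower than that of Alas2.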

How the data were processed

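The authors assigned paired reads of 100 bases to GRCm38 transcripts with Salmon (1.1.0 in the submitters' processing notes), with correction for GC bias, gathered them by gene through tximport and scaled libraries in DESeq2 (1.30.1). The deposited values are a signal in normalized counts, for 19775 genes in 12 mice, and 19758 gene identifiers were found in GENCODE M21. At most 44.4% of low values lay within 0.05 reads of whole multiples of a read, so reads were not recovered and count models were not fitted. Genotypes were compared in limma 3.58.1 (R 4.3.3) as log2(normalized count + 1), its variance prior allowed to vary with expression level, keeping genes that averaged 10 or more in the mice fitted, with Benjamini-Hochberg adjustment at 0.05. The slope fit took log2 Hbb-bs as regressor and genotype as covariate, and counted genes other than the 5. Fits were tested on simulated data. Because counts were normalized by the authors, depth per mouse is known only from the spacing of low values, and replicates are separate mice.

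The 5 transcripts, the gene lists and the tests were chosen with earlier results of these data known. Named genes are the 5, the 10 other genes with the smallest p in each direction of the slope fit, the 10 most correlated with Hbb-bs, the genes of the red cell lists, of each other list those past the threshold and up to 4 of the most abundant, and genes within 100 kb. Other listed genes, Slc4a1 as a comparison with Hbb-bs, Gm37206 as a split and the 500-count limit were chosen after their values were seen. Some listed genes count in their list and are not reported here by name. Analysis used Python 3.11.15, numpy 2.4.6, pandas 2.3.3 and Biopython for alignment.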

Additional observations from a re-analysis of the deposited data

Results flagged for a closer look

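Of 245 groups of 4 mice examined over 78 genes and 4 ratios, 10 had a highest or lowest mouse whose gap to the next, as a share of the range, exceeded the 95% critical value of Dixon's test for 4 samples, and chance alone gives about 1 in 20. Slc4a1 was 45.1 normalized counts in HM replicate 3, where the other HM mice had 8.0 to 8.41. The ratio of Hba-a1 to Hba-a2 was 0.671 in HT replicate 2 and 0.798 to 0.815 in the other HT mice. Bnip3l, a mitochondrial clearance gene of maturing red cells, was 3900 in WT replicate 3, where the others had 4420 to 4490, and 4070 in HM replicate 3, where the others had 4640 to 4720. Prdx2 was 6450 in WT replicate 1 (others 5410 to 5480), the WT mouse with the most globin, and Dmtn was 11300 in WT replicate 4 (others 10900 to 11000). Among HT mice, Alg13 was 264 in replicate 2 (others 210 to 218), Rfc3 was 141 in replicate 2 (others 120 to 123), Gbp3 was 132 in replicate 4 (others 89.9 to 96.3) and Ldb1 was 3590 in replicate 3 (others 3220 to 3280). No globin and no level of Alas2 was flagged in this way.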

How the results depend on the processing

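The number of genes past the adjusted threshold (limma, BH) was 1 (HT against WT), 2 (HM against WT), 1 (HM against HT) and 0 for slopes on Hbb-bs outside the 5 transcripts. With the replicate block, it was 1, 1, 1 and 0, and the block lowered the HM against WT count from 2 to 1. The deviations of mice with the same replicate number correlated between -0.0658 and 0.0869 over 12 pairs, so the numbers do not pair the mice, and not every mouse correlated best with its own number. Without a trend in the variance prior the counts were 0 (HT against WT), 1 (HM against WT) and 1 (Nos2) for the slopes. With Hbb-bs as a covariate they were 0 for HT against WT and 2 for HM against HT. With a block for the start of the animal number they were 3 for HM against HT and 2 (Lifr, Gm28036) for the slopes. Without a filter HM against HT had 2, and without a genotype term the slopes had 1 (Gm37206). Leaving out single mice, the counts ran from 1 to 5 for HT against WT (5 without HT replicate 3), from 2 to 3 for HM against WT, from 1 to 7 for HM against HT (7 without HM replicate 2 and 7 without HM replicate 3, the latter including the 4 globins) and from 0 to 2 for the slopes (2 without WT replicate 3 and 2 without WT replicate 4). The cause was not tested in any of these cases. Nothing is read from the globins among them, which were chosen because they differed between the mutant genotypes once 1 mouse was left out. Of 323 values of the 5 transcripts under alternatives, 314 moved by less than the spread between replicates or, for slopes, 1 SE. With each mouse left out, Hbb-bs ran from -1.12 to -0.58 in HT against WT, from -0.25 to 0.55 in HM against WT and from 0.61 (without HM replicate 1) to 1.41 in HM against HT. The number-start block took Hbb-bs in HM against WT to -0.70. Alternatives other than leaving out a mouse or holding Hbb-bs equal also moved the HT against WT values. These ran from -0.70 to -0.37 for Hba-a1, from -0.73 to -0.41 for Hba-a2 and from -0.88 to -0.52 for Hbb-bs. For Hbb-bt they ran from -0.95 to -0.66, and for Alas2 from -0.83 to -0.68. The edgeR and DESeq2 alternatives were not run, since no whole reads were recovered.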

Other observations

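Vessel wall and choroid plexus genes are given here between genotypes, where 0 of each list passed the adjusted threshold (limma, BH) and 6.99% of all genes had an unadjusted p under 0.05 in HM against WT mice. Of 10 pericyte and smooth muscle markers, 10 had a positive log2 fold change in HM against WT mice, 4 with an unadjusted p under 0.05, and their summed level was 7720 ± 268 normalized counts in HM, 7230 ± 122 in HT and 7150 ± 398 in WT mice (SD, n = 4). Choroid plexus markers had a median log2 fold change of -0.387 in HM against WT mice, 3 of 12 with an unadjusted p under 0.05, and -0.070 in HT against WT mice. Lcn2, a siderophore-binding protein of neutrophils and reactive glia, had 46.6 normalized counts in HM replicate 2 and 2.42 to 24.0 in the other mice. In HM against HT mice, mt-Co2 passed the adjusted threshold with Hbb-bs as a covariate and mt-Co3 without HM replicate 3, and neither did with all 8 mice and no covariate.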
